A study of Mus musculus with 219 samples.

Results

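The 10 genes described here are transcription factors and keratins of the trophectoderm, the outer epithelium of the blastocyst that later forms the placenta. They are Cdx2, Eomes, Gata2, Gata3, Tfap2a, Tfap2c, Elf5, Id2, Krt8 and Krt18, taken by symbol from the 32285 genes of each count table, and each symbol names 1 gene in both tables. The study placed the sperm head by intracytoplasmic sperm injection (ICSI) at 3 sites of the mouse oocyte, opposite the meiotic spindle (contralateral), beside it (ipsilateral, written isolateral in the labels) or at the equator. All embryos were B6C3F1xCD1, from B6C3F1 oocytes and CD1 sperm. Measured were single blastomeres separated at the 2-cell stage, single twin blastocysts, each grown alone from 1 blastomere of a bisected 2-cell embryo, and single intact blastocysts, grown from embryos that were not bisected. Used here are 110 blastomeres in 55 sister pairs (21 contralateral, 21 ipsilateral, 13 equatorial), 38 twins in 19 pairs (6, 7 and 6) and 31 intact blastocysts (11, 8 and 12). The counts of both twins of a pair, and of both sister blastomeres, were added to 1 embryo for comparisons between groups, so each twin value rests on 2 libraries and each intact value on 1, and p-values measure the spread between embryos.

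Trophectoderm forms when the outer cells of the morula become polarised, the Hippo pathway is switched off in them and Tead4 with its coactivator Yap turns on Cdx2. Cdx2 and the GATA and AP-2 factors Gata3, Gata2, Tfap2c and Tfap2a then hold the lineage, Eomes and Elf5 maintain the trophoblast stem state in the polar trophectoderm, and Id2 is an inhibitor of basic helix-loop-helix factors that is enriched in outer cells. Krt8 and Krt18 pair with each other to build the intermediate filaments of this first simple epithelium. In a lysed whole blastocyst, fewer trophectoderm cells and less RNA per trophectoderm cell cannot be told apart.

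The 10 genes lie on 7 mouse chromosomes (GRCm38, GENCODE M21). Krt8 (chromosome 15, 101996698 to 102004482, minus strand) and Krt18 (chromosome 15, 102028180 to 102032027, plus strand) are close neighbours that point away from each other. Cdx2 spans 147300805 to 147307270 of chromosome 5 on the minus strand. The RefSeq promoter table for GRCm38.p6 held 9 of the 10 genes, all but Tfap2c, in 12 windows. The 250 bases before the start are shown for the keratin pair, because its members differed together between twins, and for Cdx2, because it moved against the other factors. Each is written 5′ to 3′ on the strand of the gene, and capitals mark matches on either strand to 4 motifs that do not overlap in these windows. The letters searched were GCCNNNGGC for AP-2 factors and GATAAG for GATA factors. Searched in the same way were GGAATG for TEAD factors and, for Cdx2 and its relatives, TTTATG.
Krt8, chr15:102004343-102004592, minus strand: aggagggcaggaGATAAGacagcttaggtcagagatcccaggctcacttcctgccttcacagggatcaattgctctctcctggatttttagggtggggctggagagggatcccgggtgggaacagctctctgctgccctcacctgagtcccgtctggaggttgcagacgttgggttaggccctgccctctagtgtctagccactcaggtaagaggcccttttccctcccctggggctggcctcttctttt
Krt18, chr15:102027966-102028215, plus strand: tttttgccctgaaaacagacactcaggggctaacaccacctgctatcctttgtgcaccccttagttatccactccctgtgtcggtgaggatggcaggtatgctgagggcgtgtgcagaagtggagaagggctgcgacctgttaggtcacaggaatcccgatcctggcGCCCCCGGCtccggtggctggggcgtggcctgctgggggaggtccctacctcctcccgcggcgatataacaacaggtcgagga
Cdx2, chr5:147307250-147307499, minus strand: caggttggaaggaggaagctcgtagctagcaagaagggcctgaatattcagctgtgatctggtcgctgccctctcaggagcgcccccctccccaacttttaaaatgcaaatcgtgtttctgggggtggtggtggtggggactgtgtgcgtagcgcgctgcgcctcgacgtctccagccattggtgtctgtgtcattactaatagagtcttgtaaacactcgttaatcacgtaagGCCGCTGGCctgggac
The Krt8 window held 1 match to the GATA letters, and the Krt18 and Cdx2 windows held 1 match each to the AP-2 letters. Of all 32851 windows of this length, 13.7% held the AP-2 letters, 6.55% the GATA letters, 12.6% the TEAD letters and 10.8% the CDX letters. A match describes the letters of the window and says nothing of binding. The RefSeq starts that set these windows are not the GENCODE starts, and each window shown ends inside the GENCODE gene. For Krt8, whose GENCODE start is 102004482, the larger part of the window lies inside it.

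Total counts per library ranged from 360474 to 2100561 in blastomeres, from 713410 to 2161062 in twins and from 234099 to 1254428 in intact blastocysts. No pair of libraries held identical counts. All blastocysts were on the same plate, but intact ones filled its earlier wells and twins its later wells, so well position and kind of blastocyst cannot be told apart. Markers of cumulus cells, which surround the oocyte, were low in most blastocysts. Of 12 such genes Ptx3, Ptgs2, Cyp19a1 and Dcn had no count in any blastocyst. The summed level ran from 3.90 to 31.1 CPM in twin embryos (median 17.3) and from 0 to 116.2 CPM in intact ones (median 14.8). The highest of these values came from Amhr2 alone. In 2-cell embryos the summed level ran from 8.41 to 84.6 CPM (median 44.5). Unless a comparison between genes is named, levels are CPM, the counts of a gene scaled to the total of the embryo.

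The levels of the genes were ordered first, per length of transcript. In TPM, which count transcripts after division by gene length, Krt18 was the most abundant member of intact blastocysts, with a median of 2406 TPM (lowest 1836, highest 5190, n = 31). Krt8 followed at 1219 TPM and Id2 at 999.6 TPM. Krt18 was above Krt8 in 31 of 31 intact embryos, and Krt8 above Id2 in 26. Gata3 (502 TPM) and Eomes (446 TPM) formed the next level, Gata3 being the higher in 26 embryos. Tfap2c (209.9 TPM) and Tfap2a (164 TPM) came next, and these neighbours overlapped, Tfap2c being the higher in 19 of 31 embryos. Elf5 (93.2 TPM), Gata2 (85.2 TPM) and Cdx2 (77.8 TPM) closed the order without being separated: Elf5 exceeded Gata2 in 16 of 31 embryos and Gata2 exceeded Cdx2 in 19.
The order in twins was the same for the first 4 genes, with medians of 2593 TPM for Krt18, 1448 for Krt8, 872 for Id2 and 368 for Gata3, and each of these exceeded the next in 19 of 19 embryos. The fifth place was held by Cdx2 at 238 TPM, beside Eomes at 237 TPM, and Cdx2 was the higher of the pair in 11 of 19 embryos. Cdx2, the last of the 10 in intact embryos, thus stood level with Eomes in twins.

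Whether growth from a single blastomere goes with a change in these genes was asked by comparing 19 twin embryos with 31 intact blastocysts. For bisection the blastomeres were also pressed out of the egg coat and then cultured singly. These steps cannot be told apart here from growth from a single blastomere. Cdx2 was higher in twins, and 7 genes (Eomes, Gata2, Gata3, Tfap2a, Tfap2c, Elf5 and Id2) were lower, whereas neither keratin passed the test. The 8 calls among 10 genes stand beside 40.7% of all 10689 genes tested. In a single direction, 1 member was higher beside 20.1% of all genes, and 7 were lower beside 20.6%. The median log2 fold change of the 10 was −0.71, and that of all genes was 0.00.

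Cdx2, the factor that specifies the lineage, had a lowest value of 142 CPM, a median of 187 and a highest of 249 in twins, against 10.8, 60.1 and 154 CPM in intact blastocysts. Of the 19 twin embryos 17 lay above the highest intact one, and 2 lay within the intact range. The log2 fold change was 1.46 (SE 0.16, edgeR quasi-likelihood test, adjusted p = 4.37e-11). Within a single site the log2 fold change was 1.32 for contralateral, 2.09 for ipsilateral and 0.97 for equatorial ICSI, all called. The medians were 199 CPM against 74.1 after contralateral, 179.7 against 49.9 after ipsilateral and 189.8 against 83.6 after equatorial ICSI.
Eomes, a T-box factor that acts beside Cdx2 in trophoblast stem cells, went the other way, with 218, 343 and 417 CPM (lowest, median, highest) in twins and 484, 627 and 1079 CPM in intact blastocysts. No twin embryo reached the lowest intact one, a separation seen in 42 of the 10689 genes (0.393%). Its log2 fold change was −1.05 (SE 0.10, adjusted p = 5.60e-13).
Because both were counted in the same libraries, their ratio needs no scaling: the count of Cdx2 over that of Eomes ran from 0.363 to 0.896 in twins (median 0.567) and from 0.0155 to 0.256 in intact embryos (median 0.104). The 2 ranges did not touch, but the ratio combines the 2 opposite changes just given and is no further evidence for them. Cdx2 over Tfap2a also had separate ranges (lowest twin 0.977, highest intact 0.719). The ranges overlapped for Cdx2 over Elf5 (1.32 and 1.58) and over Krt18 (0.108 and 0.136).

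Among the lower genes, Tfap2a had the largest fitted fall, and Tfap2c and Elf5 followed without being separated (−1.31, SE 0.14, and −1.29, SE 0.16). Tfap2a ran from 68.9 over 109.2 to 168 CPM in twins and from 148 over 279 to 759.8 CPM in intact blastocysts, and 14 of 19 twin embryos lay below every intact one. Its log2 fold change was −1.46 (SE 0.14, adjusted p = 2.27e-13). Tfap2c, its relative that is already present in the egg, ran from 84.6 over 113 to 145 CPM in twins and from 145 over 259 to 657 CPM in intact embryos, with 18 of 19 twins below every intact embryo and a log2 fold change of −1.31 (SE 0.14, adjusted p = 2.62e-11). The highest twin and the lowest intact embryo nearly met, at 144.6 CPM each. The ratio of Tfap2a to Tfap2c counts had similar medians, 1.06 in twins and 1.16 in intact blastocysts, and its ranges overlapped.
The GATA pair was lower by less. Gata3 had 395, 509 and 626 CPM in twins against 440.1, 694 and 1464 CPM in intact blastocysts (log2 fold change −0.65, SE 0.11, adjusted p = 4.77e-06). Gata2 had 74.3, 117.1 and 161 CPM against 52.1, 159 and 535 CPM (−0.78, SE 0.17, adjusted p = 0.000146). For both genes the groups overlapped: 23 of 31 intact embryos exceeded every twin in Gata3, where 4 twins lay below every intact embryo, and 15 of 31 exceeded every twin in Gata2, where no twin lay below.
Elf5, an ETS factor of the stem cell circuit, had 38.8, 86.4 and 156 CPM in twins and 72.5, 185 and 361 CPM in intact blastocysts (−1.29, SE 0.16, adjusted p = 1.05e-09), with 22 of 31 intact embryos above every twin. Id2 changed least of the called genes, from a median of 833 CPM in intact blastocysts to 744 CPM in twins (−0.24, SE 0.07, adjusted p = 0.00846). Only 1 twin embryo was below every intact one in Id2.

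**Figure D1:**
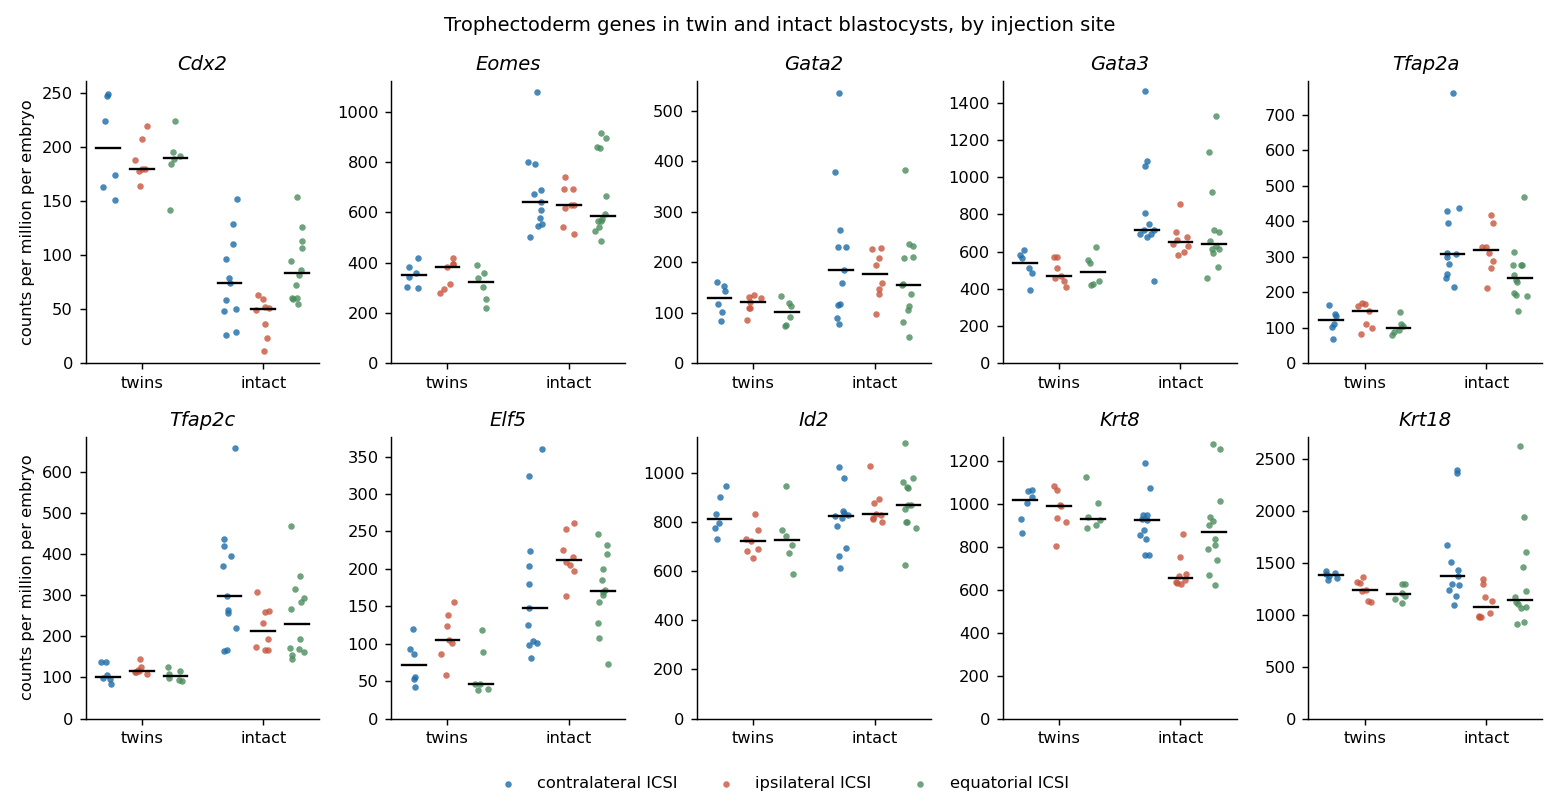
CPM of each gene per embryo (vertical axes, linear from 0), for twin pairs added together (19) and intact blastocysts (31), coloured by injection site, with bars at the medians. Cdx2 lies higher in twins, and Eomes and Tfap2c lie lower with little or no overlap. Both keratins overlap between the 2 kinds of blastocyst, with intact embryos above and below all twins.

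Neither keratin passed the test. Krt8 ran from 806 over 990.2 to 1126 CPM in twins and from 622 over 838 to 1283 CPM in intact blastocysts (log2 fold change 0.15, SE 0.08, adjusted p = 0.132). Krt18 ran from 1107 over 1297 to 1422 CPM and from 909.8 over 1229 to 2626 CPM (−0.14, SE 0.11, adjusted p = 0.282). In Krt8, 13 of 31 intact embryos lay below every twin and 3 above. In Krt18, 10 lay below and 9 above. Both folds were far smaller than those of the called factors apart from Id2, whose fold (−0.24, SE 0.07) was close in size. Their sign was not stable. Krt8 was at −0.031 when counts were thinned to the lowest total. Krt18 was at 0.018 without the 6 intact blastocysts under 500000 counts. Krt8 was called higher in twins within ipsilateral ICSI alone, by the rank-sum test and without those 6 shallow libraries, and Krt18 lower in thinned counts. In that order, these settings called 10.9%, 51.5%, 44.3% and 21% of all genes tested. The same 6 libraries held the 3 highest values of Krt18, Gata3 and Tfap2c: Krt18 ran from 1368 to 2626 CPM in them and from 909.8 to 1666 CPM in the other 25. For Elf5 the 6 were lower instead, 72.5 to 203 CPM against 98.2 to 361 CPM. Without the 6, all 8 calls named above were made, and Krt8 was called in addition. The call of Id2 was lost within each injection site alone, and those of Gata2 and Gata3 within ipsilateral ICSI alone. Counting ignored strand, so reads of the antisense genes Gm33460 (Eomes), Gm13256 (Gata3), Gm47061, Gm26688 and Gm47067 (Tfap2a) and Gm36026 (Krt8), whose exons overlap those of the members, cannot be told apart from theirs there.

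**Figure D2:**
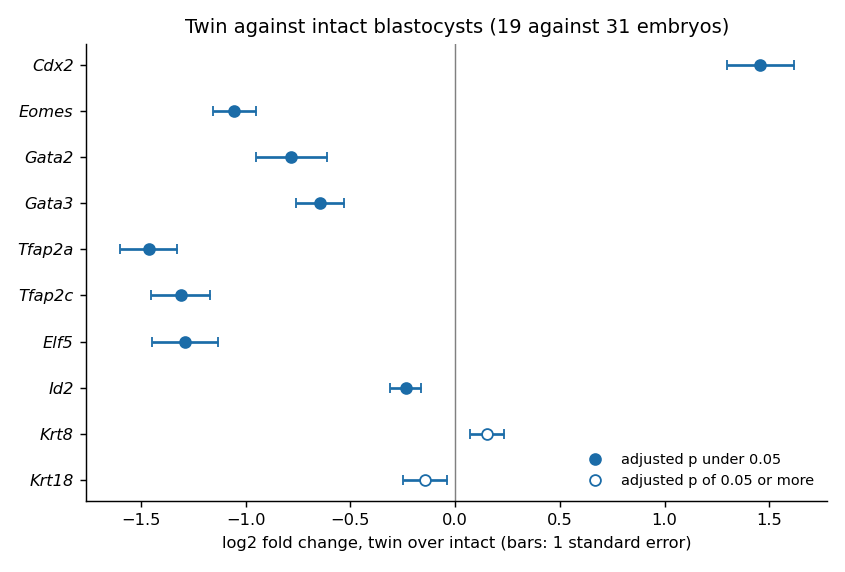
Log2 fold change of twin over intact blastocysts for the 10 genes (horizontal axis), from the edgeR fit over all genes, with bars of 1 standard error. Filled points passed an adjusted p of 0.05: Cdx2 at 1.46 stands alone on the right, 7 factors lie between −1.46 and −0.24, and the open points are Krt8 and Krt18.

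Other lists of lineage genes moved with the same comparison. Of 20 further trophectoderm genes 18 were tested, 4 were higher in twins and 12 lower, with a median log2 fold change of −0.44 beside 0.00 over all genes. Krt19, a keratin without a fixed partner, fell from a median of 179.8 CPM in intact blastocysts to 25.5 CPM in twins (−2.98, SE 0.26, adjusted p = 8.04e-14), unlike Krt8 and Krt18. Lgals3, a lectin, was lower (−1.48, SE 0.15, adjusted p = 3.21e-12), and Lrp2, an endocytic receptor, was higher, at 473 against 66.3 CPM (2.42, SE 0.24, adjusted p = 3.78e-11). Of 12 epiblast genes, with a median of 0.85, 8 were higher and none lower, led by Pou5f1, the Oct4 gene (213 against 55.5 CPM, 1.72, SE 0.16, adjusted p = 1.06e-13), Gdf3 and Tdgf1, both of the Nodal pathway (2.11, adjusted p = 3.27e-06, and 1.77, adjusted p = 0.000447). Of 12 primitive endoderm genes 11 were tested, with a median of −1.40, 1 was higher and 7 were lower, among them the basement membrane genes Lama1 (−1.22, adjusted p = 5.09e-07) and Col4a1 (−1.40, adjusted p = 0.000307) and the collagen chaperone Serpinh1 (−1.53, adjusted p = 0.000544).
The summed epiblast level ran from 493.4 to 1048 CPM in twins and from 36.1 to 735 CPM in intact embryos, and that of primitive endoderm from 393 to 1204 and from 149.9 to 1947 CPM. Of 10 maternal genes 2 were tested: Dppa3, which is also an inner cell mass gene, was higher (2.89, adjusted p = 1.06e-09), and Zp2, a zona gene, was lower at levels near 0, medians of 0.945 and 1.87 CPM (−2.08, adjusted p = 0.00762). Neither Star (adjusted p = 0.468) nor Amhr2 (adjusted p = 0.747), the 2 cumulus genes tested, was called. The part of these levels and of well position in the change of the 10 genes was not tested. Depth was varied by thinning counts to the lowest total and by leaving out the 6 intact blastocysts under 500000 counts. None of the 8 calls was lost in either, beside 21% and 44.3% of all genes called. The part of depth in the size of the change was not tested. Cdx2, Eomes, Tfap2a, Tfap2c and Elf5 were called within each of the 3 injection sites alone. Of all 10689 genes tested, 17.8% were called within contralateral, 10.9% within ipsilateral and 13.6% within equatorial ICSI.

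The study varied the site of sperm entry as a means to set how the first cleavage plane lies. In oocytes held still, it then reports a preference for cleavage across the shorter diameter, whichever site was injected. Site therefore need not stand for cleavage plane. The 3 sites were compared here within each kind of blastocyst. In twins, 0 of the 10 genes were called between any 2 sites, beside 0% of all 10995 genes tested by edgeR in each of the 3 comparisons. At an unadjusted p under 0.05 there were 728 genes for the contralateral against the equatorial group, 426 for ipsilateral against equatorial ICSI and 754 for contralateral against ipsilateral ICSI, DESeq2 called 9, 1 and 1, none of them a member, and the rank-sum test called 0 in each. The 3 comparisons share their groups. The smallest unadjusted p of a member belonged to Krt18. Its 6 contralateral embryos ran from 1337 to 1422 CPM and its 6 equatorial ones from 1107 to 1297 CPM. The log2 fold change was 0.23 (SE 0.07, unadjusted p = 0.00293, adjusted p = 0.610). The share of all genes whose ranges lie apart in this comparison was not counted. Full separation of 6 from 6 embryos has a rank-sum p of 0.00216, the smallest that test can give for these groups. With 7 against 6 embryos the smallest is 0.00117. Over 10995 genes such values pass the adjustment only if many genes separate fully, so the 0 calls of that test in twins are little evidence. Krt18 against the ipsilateral group (1116 to 1358 CPM) was at 0.19 (SE 0.07, adjusted p = 0.686). Elf5 was at 58.8, 105.4 and 156 CPM after ipsilateral and at 38.8, 46.6 and 117.7 CPM after equatorial ICSI (0.80, SE 0.28, adjusted p = 1.00), and the ranges overlapped. Id2 was at a median of 813 CPM after contralateral, 723 after ipsilateral and 725 after equatorial ICSI (0.23, SE 0.09, adjusted p = 0.700 for contralateral against ipsilateral). Gata2 was at 129.7 CPM after contralateral and 101.6 CPM after equatorial ICSI (0.36, SE 0.17, adjusted p = 0.737).

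In intact blastocysts, 0 of the 10 genes were called in any of the 3 site comparisons, beside 0% of 9165 genes each. Unadjusted p under 0.05 was reached by 629 genes in the contralateral to equatorial comparison, 338 in the ipsilateral to equatorial one and 522 in the contralateral to ipsilateral one, DESeq2 called 1, 0 and 0 genes and the rank-sum test 0 in each. The member with the smallest unadjusted p was Cdx2: 10.8, 49.9 and 62.8 CPM in the 8 ipsilateral embryos against 54.2, 83.6 and 154 CPM in the 12 equatorial ones, with 26.3, 74.1 and 151 CPM in the 11 contralateral ones. The ipsilateral embryos were the lowest as a group but overlapped both others. The log2 fold change was −1.12 against equatorial (SE 0.35, unadjusted p = 0.00282, adjusted p = 1.00) and 0.94 for contralateral against ipsilateral (SE 0.36, adjusted p = 0.822).
Krt8 also had its lowest median after ipsilateral ICSI, with 629, 656 and 862 CPM there, 622, 869 and 1283 CPM after equatorial and 762, 925 and 1190 CPM after contralateral ICSI. Contralateral exceeded ipsilateral ICSI by a log2 fold of 0.52 (SE 0.17, unadjusted p = 0.00302, adjusted p = 0.822) and ipsilateral was below equatorial ICSI at −0.46 (SE 0.16, adjusted p = 1.00). Krt18 (0.56, SE 0.21) and Tfap2c (0.70, SE 0.26) were also higher after contralateral than ipsilateral ICSI, each with an adjusted p of 0.822, and Tfap2a was at 0.51 (SE 0.21, adjusted p = 0.667) for contralateral against equatorial ICSI. The intact ipsilateral group holds no library under 500000 counts, its totals running from 531176 to 836680.
Whether the sites differ in another way in twins than in intact blastocysts was tested with an interaction term. It called 0 of the 10 genes beside 0% of 10689, with 246 genes at an unadjusted p under 0.05. Cdx2 (unadjusted p = 0.0222) and Krt8 (unadjusted p = 0.0496) were among those 246, each with an adjusted p of 1.

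How alike the twins of a pair are was described on the log2 CPM scale with a prior count of 2. Pairs entered only if both blastomeres had formed a blastocyst and both libraries were kept. Bisected embryos in which a single blastomere, or neither, formed a blastocyst are absent, so agreement within pairs is described only where both did. The keratins differed least, with a median absolute difference of 0.15 for Krt8 and 0.16 for Krt18, which is a fold of 1.11 and 1.12. Id2 (0.18) and Gata3 (0.20) were nearly as close, Gata2 (0.28), Tfap2c (0.30), Eomes (0.37) and Cdx2 (0.43) were intermediate, and Tfap2a (0.46) and Elf5 (0.55) differed most. The median over all 9773 genes tested was 0.46, so that only Elf5 exceeded it. Elf5 is also the least abundant of the 10 in twins per length, and the part of counting error in these differences was not tested.
Krt8, Krt18, Id2 and Cdx2 differed by less than a fold of 2 in 19 of 19 pairs. Tfap2a and Elf5 passed that fold in 5 pairs each, Tfap2c in 3, Gata2 in 2 and Eomes and Gata3 in 1 each. The widest Cdx2 difference was in the equatorial pair 112a and 112b, with 241 CPM in 112a and 124.8 CPM in 112b.

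**Figure D3:**
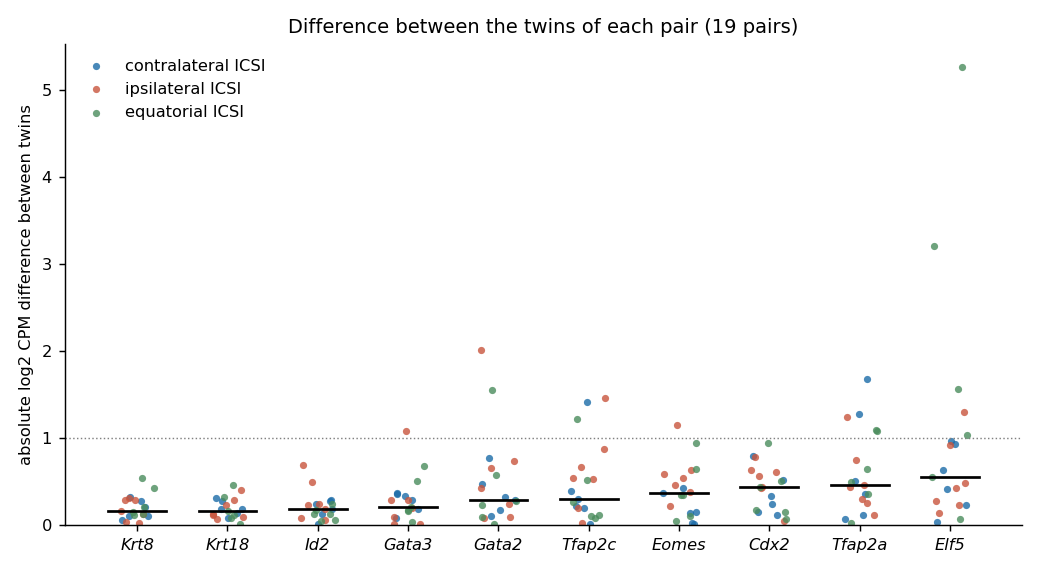
Absolute difference in log2 CPM between the twins of each of 19 pairs (vertical axis), by gene in the order of the medians (bars) and coloured by injection site. The dotted line marks a fold of 2: no pair of Krt8, Krt18, Id2 or Cdx2 lies above it, and Elf5 has 2 equatorial pairs far above.

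Single pairs stood out. Twin a of an equatorial pair had 0 counts of Elf5 in a library of 866859, which allows a level of up to 3.46 CPM, whereas its sister had 65.2 CPM. Elf5 was at 7.26 CPM in the equatorial twin 112a and 81.3 CPM in 112b. Twin b of an ipsilateral pair had less of 7 of the 8 factors than its sister: 48.1 against 199.6 CPM of Gata2, 66.96 against 187 CPM of Tfap2c, 97.1 against 232 CPM of Tfap2a, 187 against 414 CPM of Eomes, 333 against 704 CPM of Gata3, 593 against 954 CPM of Id2 and 143 against 219 CPM of Cdx2. The keratins of this pair were close, 926 against 910.4 CPM of Krt8 and 1088 against 1180 CPM of Krt18, and Elf5 was the exception, at 82.99 against 32.6 CPM. This pair is named because it had the widest difference of Eomes, Gata2, Gata3, Tfap2c and Id2. The share of all genes that were lower in its twin b was not counted.

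Whether twins of the same embryo resemble each other more than twins of other embryos of the same site was tested jointly over embryos. Here too, only pairs in which both twins formed a blastocyst are covered. The edgeR test called 0 of the 10 genes, beside 0.911% of the 9773 genes tested (89 genes, 1086 at an unadjusted p under 0.05), and limma-voom called 0 members and 1.2% of the genes. The smallest unadjusted p of a member was that of Id2 (0.0788, adjusted p = 0.534), followed by Gata3 (0.155, adjusted p = 0.638). The share of variance that lay between embryos was 0.211 for Id2, 0.110 for Gata3, 0.0835 for Krt8 and 0.0405 for Eomes, against a median of 0.101 over the genes tested. It was below 0 for Cdx2 (−0.103), Gata2 (−0.00276), Krt18 (−0.260) and Tfap2c (−0.488). A value below 0 arises where the sampled twins of a pair differed more than twins of different pairs. Such values were common: 34.5% of all genes tested had a lower share than Gata2, and 0.696% a lower one than Tfap2c. Whether any of these shares differs from 0 in the negative direction was not tested. The result depends on the filter: without a filter on low counts 4 members (Eomes, Gata3, Tfap2a and Elf5) were called, beside 4.39% of 21113 genes (927 genes).

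Which twin of a pair was the higher was shared between genes to unequal extents. Krt8 and Krt18 were higher in the same twin in 15 of 19 pairs, with a Pearson coefficient of 0.83 and a Spearman coefficient of 0.80 between their differences. Tfap2a and Id2 were also higher in the same twin in 15 pairs (0.68 and 0.68). These were the highest 2 counts among the 45 pairs of members, whose median was 11 of 19, while 1.17% of all pairs of tested genes reached 15 and their median was 10. Eomes went with Tfap2c and with Elf5 in 14 pairs each, and Tfap2c went with Krt8 and with Krt18 in 14 each as well. Gata3 went with Tfap2a and with Id2 in 13 each. Eomes with Krt18, Elf5 with Id2 and Tfap2c with Elf5 also reached 13. At least 12 pairs were reached by 19 of the 45 pairs of members and by 18.8% of all pairs of tested genes. At least 13 pairs with Gata3 were reached by 8.65% of 9772 other genes. Gata2 and Gata3, which bind the same letters, were higher in the same twin in 11 pairs, as many as 34.3% of other genes reached with Gata2. The sizes of their differences ran together, with a Pearson coefficient of 0.71 and a Spearman coefficient of 0.56. Cdx2 was with Gata2 and with Gata3 in 13 pairs each, with Pearson coefficients of 0.34 and 0.10. With Tfap2a and with Id2 it was in 7, the fewest among the 45 (Pearson −0.23 and −0.26). Of 9772 other genes, 9.10% were with Cdx2 in at least 13 pairs and 90.9% in at least 7, with a median of 10. Both genes of each point come from the same libraries, and the coefficients are descriptions.

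**Figure D4:**
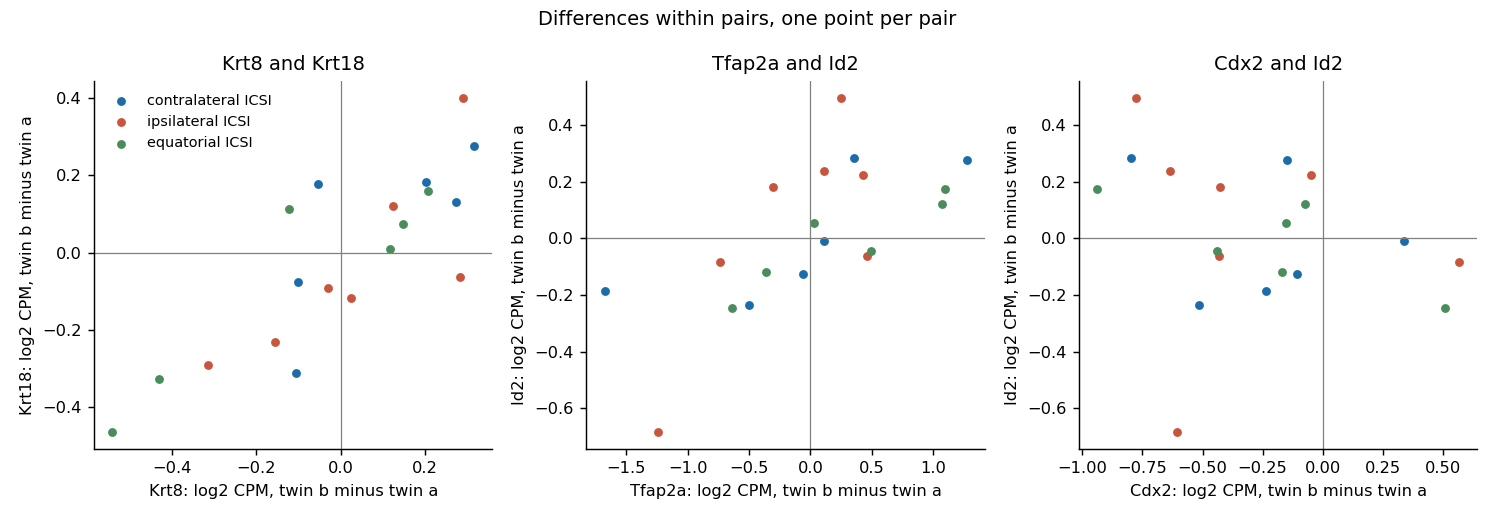
Difference in log2 CPM, twin b minus twin a, for Krt8 and Krt18 (left), Tfap2a and Id2 (middle) and Cdx2 and Id2 (right), with a point for each of 19 pairs coloured by injection site. Points in the lower left and upper right are pairs in which both genes are higher in the same twin: 15 of 19 in the left and middle panels and 7 of 19 in the right one.

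Over the 38 single twins, the genes whose level ran most like that of Krt8 among 9772 others were Las1l (Spearman 0.59), Stard10 (0.58) and Ap1s1 (0.56), and Krt18 itself ranked 2 of them at 0.58. Those most like Gata3 were Rbm47 (0.77), Rpia (0.73) and Cxadr (0.71), and among the members Gata2 (0.65) ranked 8 and Tfap2a (0.58) ranked 32. Those most like Cdx2 were Lmnb1 (0.68), Txnl4b (0.67) and Amdhd2 (0.66), and no member came near: Gata2 (0.35) ranked 478 and Gata3 (0.30) ranked 822, whereas Eomes was at −0.08 and Id2 at −0.14. The points share embryos and differ in depth, and the coefficients carry no test.

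At the 2-cell stage most of these genes were barely counted. Tfap2c had a count in 110 of 110 blastomeres (median 45.4 CPM), Id2 in 103 (53.3 CPM), Gata3 in 92.7% (22.8 CPM) and Tfap2a in 90 (6.05 CPM). Krt8 was counted in 67, Eomes in 58, Krt18 in 57, Gata2 in 32, Elf5 in 29 and Cdx2 in 4. No blastomere had more than 8 counts of Elf5, and 1 blastomere, 28a of the ipsilateral group, had 21 of the 30 counts of Cdx2 in all 110. A library with no count allows a level of up to 1.43 to 8.32 CPM, depending on its depth, so that a low level could not be told from absence.
Counts were uneven between sisters. Eomes was counted in both sisters of 19 pairs, in 1 sister of 20 and in neither of 16. Krt18 gave 17, 23 and 15 pairs and Krt8 gave 23, 21 and 11. Gata3 was counted in both sisters of 49 pairs and Id2 of 49. The highest keratin values were those of 7b (contralateral), with 37.0 CPM of Krt8 and 91.7 CPM of Krt18, and 37b (equatorial), with 106.8 CPM of Krt8 and no count of Krt18. Their summed cumulus markers, 43.8 and 49.7 CPM, ranked 61 and 71 of 110 from the lowest. Next in summed keratins were 50a, 33b and 36b, whose cumulus markers (42.3, 81.9 and 7.82 CPM) ranked 56, 99 and 7.

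From the 2-cell embryo, with both sisters added, to the intact blastocyst all 10 genes rose. Here 10 of 10 were called higher by edgeR, beside 31.2% of the 12645 genes tested (77.1% called in either direction). Elf5 (log2 fold change 9.05, SE 0.50) and Cdx2 (8.94, SE 0.80) had the highest fitted folds, from medians of 0 CPM, so that their folds rest on few counts at the 2-cell stage. In thinned counts, where Cdx2 was not tested, Elf5 was at 7.05 and Gata2 at 4.71, and Krt18 (7.94) was above Elf5. Krt18 rose by 7.57 (SE 0.66), from a median of 8.50 to 1229 CPM, and Krt8 by 7.33 (SE 0.63), from 3.86 to 838 CPM. Gata2 (6.76), Eomes (6.11), Tfap2a (4.69), Gata3 (4.04) and Id2 (3.90) followed. Tfap2c rose least, by 1.85 (SE 0.23), from 47.7 to 259 CPM, with the groups close to each other, 126.4 CPM being the highest 2-cell value and 145 CPM the lowest intact one. The largest adjusted p of the 10 was that of Tfap2c, 1.01e-11.
The median of all genes in this comparison was −0.41 with TMM factors and −0.10 with total counts alone. Relative to the former, each member's rise is larger by that shift. The members' median was 6.43. Of the other trophectoderm genes 16 of 17 tested rose and none fell, with a median of 4.90. Primitive endoderm genes were much the same: 10 of 11 tested rose and 1 fell, with a median of 4.87. Of 10 epiblast genes tested 3 rose and 2 fell, and of 3 cumulus genes tested 2 fell. Of the maternal genes 10 of 10 fell, beside 5802 of the 12645 genes.

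**Figure D5:**
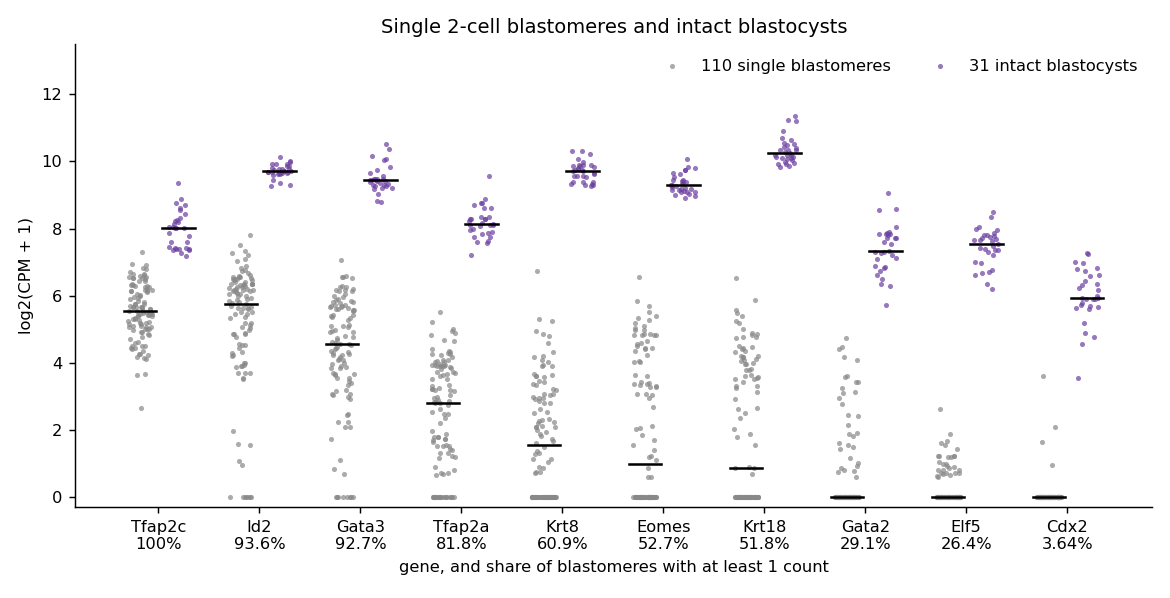
Level on the log2(CPM + 1) scale in 110 single blastomeres (grey) and 31 intact blastocysts (purple) for each gene, with bars at the medians and the share of blastomeres with at least 1 count under each name. The share runs from 100% for Tfap2c to 3.64% for Cdx2, and the median of every gene is higher in the blastocysts. The highest blastomere exceeds the lowest blastocyst in Tfap2c (155.5 against 144.6 CPM) and in Cdx2 (11.2 against 10.8 CPM).

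Between injection sites in 2-cell embryos, 7 of the 10 genes passed the filter on low counts, and Cdx2, Gata2 and Elf5 did not. Of the 7, edgeR called 0 between contralateral and equatorial ICSI, beside 13.2% of 13141 genes, 0 between ipsilateral and equatorial ICSI, beside 6.65%, and 0 between contralateral and ipsilateral ICSI, beside 0%. Tfap2c came closest, with 19.4, 42.5 and 87.7 CPM after contralateral, 14.2, 44.7 and 126.4 CPM after ipsilateral and 28.7, 64.4 and 108.2 CPM after equatorial ICSI. The ranges overlapped. Its log2 fold change against equatorial was −0.57 (SE 0.22, unadjusted p = 0.0139, adjusted p = 0.0818) for contralateral and −0.46 (SE 0.23, adjusted p = 0.2496) for ipsilateral ICSI. The contralateral difference passed in plate 1 alone, beside 16.9% of genes, and with all complete pairs, beside 14.5%. At an unadjusted p under 0.05, edgeR gave 3421, 2576 and 555 genes in the 3 comparisons, and DESeq2 called 2270, 1304 and 0 genes and no member.
The resemblance of sisters was tested over the 55 pairs. None of the 7 genes tested was called by edgeR, beside 10.8% of 11712 genes (1263 called, 2443 at an unadjusted p under 0.05), with the smallest values for Eomes (adjusted p = 0.0965) and Gata3 (adjusted p = 0.0984). Their share of variance between embryos was 0.338 and 0.422, and that of the other genes 0.348 (Id2), 0.314 (Krt8), 0.312 (Tfap2a), 0.286 (Tfap2c) and 0.0645 (Krt18), against a median of 0.141 over the genes tested. The call is not stable, since limma-voom called 5 of the 7 (Eomes, Gata3, Tfap2a, Id2 and Krt8), beside 25.9% of the 11712 genes (3034 genes).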

How the data were processed

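Single blastomeres and blastocysts were sequenced by a full-length Smart-seq protocol. Per the labels and the study's methods, the authors trimmed reads with Trimmomatic, aligned the first 100 bases with STAR 2.7.10b in SmartSeq mode to GRCm38 with GENCODE M23, without strand, collapsed exact duplicates, and deposited whole-number counts per gene. Collapsing duplicates can lower the counts of abundant genes. Of 125 blastomeres in the table, pairs with at least 9500 genes in both sisters were kept. The members, gene lists and tests were chosen with earlier results of these data known. Members were named by their symbols, the other genes by list, and those most like Cdx2, Gata3 and Krt8 by Spearman coefficient.

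Groups came from the labels. Counts of twins and of sisters were added per embryo and tested with edgeR 4.0.16 (quasi-likelihood, TMM, filterByExpr, R 4.3.3), with adjusted p (Benjamini-Hochberg) over all genes tested and a threshold of 0.05. Twin against intact had ICSI site as a term, and 2-cell comparisons had plate. CPM is scaled to total counts, and TPM uses GENCODE M21 exon lengths (32235 of 32285 genes). Floors stand for 3 counts and cover counting error only. Scripts were tested on simulated data. DESeq2 1.42.0, limma-voom 3.58.1, permutation rank-sum tests, thinning and other filters were alternatives.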

Additional observations from a re-analysis of the deposited data

Results flagged for a closer look

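In 2 of 40 sets of 4 to 10 embryos, 1 embryo stood far from the others by Dixon's ratio, and chance gives about 1 in 20. Both are in the 8 intact blastocysts after ipsilateral ICSI. The highest Gata3 value was 854 CPM, with the nearest at 706 CPM, and the highest Id2 value was 1026 CPM, with the nearest at 891 CPM. Neither gene was called between injection sites.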

How the results depend on the processing

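For twin against intact blastocysts, 6 to 9 members were called over the alternatives. The lowest count came within ipsilateral ICSI, where 10.9% of all genes tested were called. The highest came from thinned counts (21% of all genes tested), the rank-sum test (51.5%) and the omission of 6 intact blastocysts under 500000 counts (44.3%). The last and the within-site values were added after seeing the data. Krt8 reversed to −0.031 in thinned counts and −0.0027 within equatorial ICSI, and Krt18 to 0.10 within ipsilateral ICSI and 0.018 without the shallow libraries. Id2 lost its call in 4 settings, no low-count filter and each site alone, and Gata2 and Gata3 lost theirs within ipsilateral ICSI. All genes called fell from 4353 to 1755 in thinned counts and to 1906, 1160 and 1452 within contralateral, ipsilateral and equatorial ICSI, where fewer embryos enter. Without a low-count filter the embryo of origin test called 4 members in twins and 4 in sisters, and limma-voom called 5 in sisters. In twins this stood beside 927 of 21113 genes (4.39%), against 89 of 9773 (0.911%) with the filter. In sisters it stood beside 4195 of 24964 genes (16.8%), against 1263 of 11712 (10.8%), and limma-voom called 3034 of 11712 (25.9%). In 2-cell embryos, contralateral against equatorial ICSI called 1 member, Tfap2c, in plate 1 alone (beside 16.9% of genes) and with all complete pairs (14.5%). Without the filter, ipsilateral against equatorial ICSI called 1, Cdx2, beside 10.4% of genes. Cdx2 had a count in 3 of 42 ipsilateral and 0 of 26 equatorial blastomeres. The ipsilateral blastomere 28a held 21 of the 30 counts of Cdx2, so that this call rests largely on 1 library. All genes called between sites in 2-cell embryos were 3930, 2603 and 1577 without the filter. They were 1104 for contralateral against equatorial ICSI at a mitochondrial fraction of at most 0.02. With total count as a covariate, ipsilateral against equatorial ICSI called 184. Between sites in blastocysts DESeq2 called 9, 1 and 1 genes in twins and 1 for contralateral against equatorial ICSI in intact embryos, and ipsilateral against equatorial ICSI in twins gave 1 without the filter. From the 2-cell embryo to the blastocyst, 15441 genes were called without the filter and 4779 in thinned counts, where Cdx2 was not tested and the other 9 members were called. Apart from construction, the cause was not tested. Of the counts of members called, 74 alternatives stayed at 0 or moved by at most 1.5 times, and 6 moved by more. Of the single values, 346 were the same, 19 gained a call, 6 lost it and 4 reversed. The same means an unchanged call and, where a test has a direction, an unchanged direction. For the differences between twins, which are among both the 74 and the 346, it means a shift within 1 standard deviation over pairs. No paired analysis was possible because the groups compared share no pair numbers. At the 2-cell stage a library with no count of a gene allows up to 8.32 CPM, which limits the low values there.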
